A study of Mus musculus with 6 samples.

Results

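The 57 genes described here are the mouse genes named by a letter family and a number in 7 groups of developmental transcription factors, namely the *Pax*, *Lhx*, *Six2* to *Six6* and their relatives, *Nkx*, *Dlx* and *Msx*, *Irx*, and *Hmx* and *Vax* genes. They were taken from the 55385 genes of the count table by a rule on names that uses no measured value, although the rule was set with earlier results of these data known. RNA had been sequenced from mouse embryonic stem cells (mESCs) of 3 genotypes, with 2 libraries each. Wild-type (WT) cells were the G4 line, an F1 hybrid of the 129/Sv and C57BL/6 backgrounds. Cells labeled Wnt6 het del carried a CRISPR-Cas9 deletion of the *Wnt6* anchor on 1 allele, and cells labeled Wnt6 homo del carried it on both. The deleted segment lies on chromosome 1 and is an anchor of long-range contacts associated with H3K27me3, the histone mark of Polycomb silencing. The edited cells were selected as individual clones, and the sources used here do not give the number of clones behind the libraries. All 3 genotypes were kept with LIF on CD1 feeder cells, which also contribute RNA.

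Homeobox genes encode transcription factors with a DNA-binding homeodomain, and PAX proteins carry a paired domain, some of them with a homeodomain beside it. They are used in the embryo to lay out the eye, brain, spinal cord, limb, muscle, kidney and other organs. In embryonic stem cells, most genes of this class are held silent or nearly silent by Polycomb complexes, at promoters rich in CG dinucleotides. LHX factors act with LDB cofactors, SIX4 and its relatives with EYA proteins, and many NKX and PAX proteins can recruit TLE corepressors.

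The promoters of 4 members that passed a test below are printed here to show how they differ in CG content. In each, the 250 bases before a RefSeq transcription start of GRCm38.p6 are given 5′ to 3′ on the strand of the gene, with every CG dinucleotide in capitals. *Pax6* is shown at its upstream start (chr2:105668646-105668895, plus strand), *Pax8* at chr2:24475600-24475849 (minus strand), *Msx1* at chr5:37824586-37824835 (minus strand) and *Dlx2* at chr2:71546755-71547004 (minus strand). No annotated exon overlaps these 4 stretches.
Pax6: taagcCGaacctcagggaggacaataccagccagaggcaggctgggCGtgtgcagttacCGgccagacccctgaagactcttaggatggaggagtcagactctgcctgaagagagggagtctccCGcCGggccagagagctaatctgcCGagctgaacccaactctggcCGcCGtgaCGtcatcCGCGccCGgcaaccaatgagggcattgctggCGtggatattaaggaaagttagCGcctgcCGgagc
Pax8: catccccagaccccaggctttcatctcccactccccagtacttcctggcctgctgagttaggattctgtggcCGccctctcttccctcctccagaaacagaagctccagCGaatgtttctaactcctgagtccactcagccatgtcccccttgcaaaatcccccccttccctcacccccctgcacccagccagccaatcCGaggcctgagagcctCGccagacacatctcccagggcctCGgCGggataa
Msx1: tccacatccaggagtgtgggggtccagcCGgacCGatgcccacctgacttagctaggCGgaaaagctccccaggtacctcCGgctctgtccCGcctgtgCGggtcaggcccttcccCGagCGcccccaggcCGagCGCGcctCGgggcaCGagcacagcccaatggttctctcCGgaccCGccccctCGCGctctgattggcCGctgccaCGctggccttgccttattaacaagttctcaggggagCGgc
Dlx2: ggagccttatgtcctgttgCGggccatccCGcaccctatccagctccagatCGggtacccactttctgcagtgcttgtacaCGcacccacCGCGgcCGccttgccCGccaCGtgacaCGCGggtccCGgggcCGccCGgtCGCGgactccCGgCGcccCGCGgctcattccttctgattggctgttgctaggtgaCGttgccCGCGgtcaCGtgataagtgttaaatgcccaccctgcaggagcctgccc
The stretch of *Dlx2* holds 24 CG dinucleotides, that of *Msx1* 20, that of *Pax6* 15 and that of *Pax8* 6. The promoter windows used for counting were 300 bases long, from 250 before to 50 after each start, and 51 windows were found for 42 of the 57 members. Their median was 19 CG dinucleotides per window (range 2 to 40), against a median of 7 over all 32851 windows. At least 10 were present in 45 of the 51 member windows (88.2%), against 43.5% of all windows. The 28 windows of members with enough reads to be tested had a median of 17.5, and the 23 windows of the other members had a median of 20. The letters TATAAA, searched on both strands and sharing no letters with the CG counts, were in 7.84% of member windows and in 13.6% of all windows. Among the windows richest in CG were those of *Hmx1* (38) and *Nkx1-1* (37), which drive factors of sensory and neural patterning. Among the poorest were a window of *Hmx2* (2) and those of *Lhx8* (4), *Lhx9* (6) and *Pax8* (7). The *Lhx9* window (138842395 to 138842694, minus strand) lies inside the gene, whose annotated 5′ end is at 138848577, so it does not describe a promoter at that end.

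**Figure D1:**
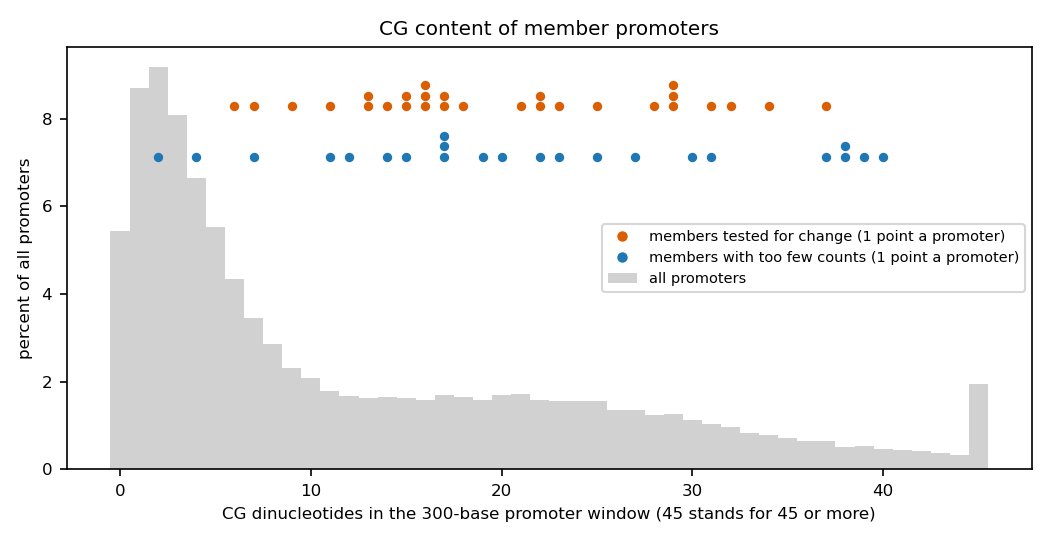
Number of CG dinucleotides in each 300-base promoter window, with all windows as grey bars (percent of all windows) and each member window as a point, in orange for members tested for a change and in blue for those with too few counts. The member points spread from 2 to 40 around a median of 19, to the right of the median of 7 over all windows.

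The libraries held 23813912 to 28964706 counts, and 3 counts, the limit that a count of 0 allows, correspond to 0.102 to 0.131 CPM (counts relative to the scaled library total), which covers counting error only. The check of the deletion followed its labels, since *Wnt6* had 11 and 13 counts in WT libraries, 6 and 4 with 1 deleted allele and 0 and 0 with both deleted. Some features of the whole data set accompany the results below. In them, higher and lower genes are those at an adjusted p below 0.05 in the edgeR test described below. Of all 16951 tested genes, 2.23% were higher and 2.91% lower in heterozygous against WT. These shares were 10.9% and 10.5% in homozygous against WT, and 12.9% in each direction in homozygous against heterozygous cells. The 34 fibroblast genes listed as markers of feeder cells summed to 4700 to 4740 CPM in WT, 3570 to 3610 in heterozygous and 2620 to 2650 in homozygous libraries, and none of them was at 0 in every library. In homozygous against WT, 27 of the 30 tested were lower and the median log2 fold change was -1.08, and in heterozygous against WT 19 were lower and 1 was higher, with a median of -0.47. On chromosome 8, the median of the 890 tested genes was 0.39 for homozygous against WT, with 547 higher and 18 lower, while the median of all genes was -0.01. In heterozygous against WT their median was -0.12, with 4 higher and 121 lower, beside 0.00 over all genes. The 15 pluripotency genes summed to 3510 to 3580 CPM in WT, 3190 to 3240 in heterozygous and 3530 to 3720 in homozygous libraries. Of these 15, 7 were lower and 0 higher in heterozygous against WT, and 10 were higher and 0 lower in homozygous against heterozygous cells.

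*Six4* supplied the largest share of the reads of the class. In WT cells it was at 6.49 ± 0.364 CPM per kilobase of exon (SD, n = 2), and it held between 47.8 and 52% of all member counts in each of the 6 libraries. It encodes a homeodomain partner of EYA proteins in muscle and sensory organ formation. Further levels were those of *Nkx6-3* at 0.919 ± 0.0105, *Msx2* at 0.893 ± 0.104, *Six5* at 0.886 ± 0.0749, *Irx2* at 0.839 ± 0.0737, *Nkx6-2* at 0.798 ± 0.119 and *Pax6* at 0.793 ± 0.0139 CPM per kilobase. Among these 6 genes, the neighbours in this order differed by less than the larger of their SDs. The level of *Nkx6-2* is uncertain, since it shares 12.9% of its exon bases with the opposite-strand gene *Inpp5a*, which had 767 to 883 counts in a library. *Msx1* was at 0.660 ± 0.0488 and *Nkx2-9* at 0.637 ± 0.0630. By CPM, *Six4* stood above 88.3% and *Pax6* above 66.7% of the 28610 genes with a count in WT.

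Most members were close to the limit of detection. In every library, 23 members had at least 10 counts, and 7 never exceeded 3. *Pax4*, a factor of pancreatic endocrine cells, had no count in any library. *Vax1*, *Nkx2-1* and *Nkx2-6*, of forebrain, thyroid and pharyngeal or cardiac development, had none in WT and at most 2 in any library. A total of 28 members reached 10 counts in 2 or more libraries and were tested, and all 28 reached that count in at least 1 library of each genotype. The 29 untested members had totals of 0 to 53 counts over the 6 libraries. Summed over all 57 members, expression was 140 to 146 CPM in WT, 147 to 148 in heterozygous and 145 to 146 in homozygous libraries.

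**Figure D2:**
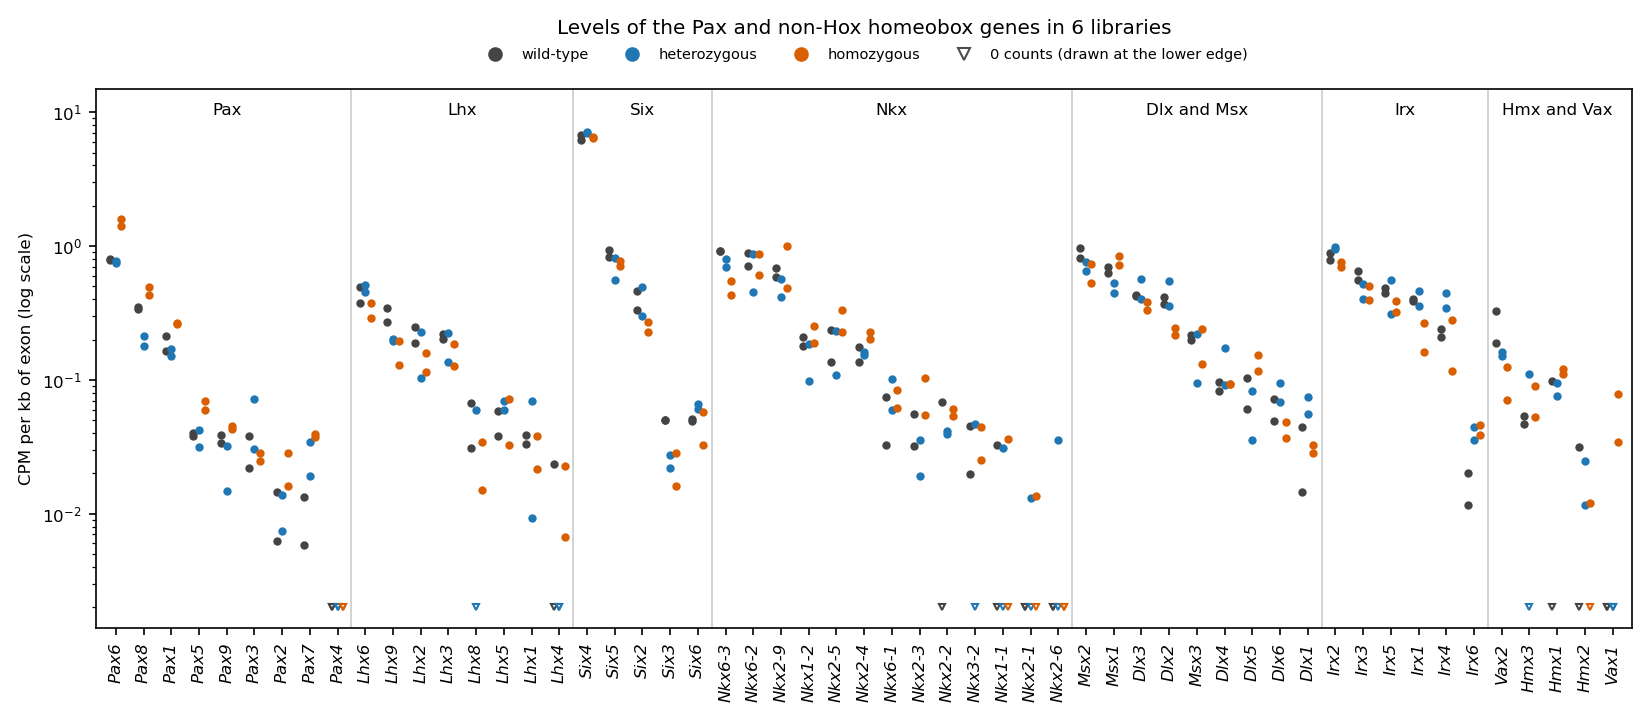
Level of 55 of the 57 members in each of the 6 libraries, in CPM per kilobase of exon on a log axis, grouped by family and ordered within a family by the WT mean, with libraries at 0 counts as open triangles at the lower edge. *Six4* lies above 5 in every library, whereas most of the others shown lie below 1.

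Some members lying next to each other on a chromosome differed in level, and whether members lying apart differed less was not tested. Where starts at most 1000 kb apart are taken as a cluster, 12 clusters held 29 of the 57 members. *Dlx1* and *Dlx2*, forebrain interneuron factors whose starts are 18.6 kb apart, were at 0.0293 ± 0.0209 and 0.393 ± 0.0331 CPM per kilobase in WT. *Dlx1* shares 6.21% of its exon bases with the opposite-strand gene *Dlx1as*, which had 13 to 24 counts in a library, so its level is uncertain. *Nkx2-9* was at 0.637 ± 0.0630 between *Nkx2-1* at 0 and *Pax9* at 0.0362 ± 0.00358. In the *Irx3*, *Irx5* and *Irx6* cluster of chromosome 8, the first 2 were at 0.603 ± 0.0708 and 0.467 ± 0.0298 and *Irx6* at 0.0159 ± 0.00606. The *Irx1*, *Irx2* and *Irx4* cluster of chromosome 13 was detected at all 3 genes, at 0.396 ± 0.00978, 0.839 ± 0.0737 and 0.224 ± 0.0222 (all SD, n = 2).

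To ask whether loss of the *Wnt6* anchor changed these genes, each deletion was compared with WT and the deletions with each other. The fold threshold required more than a 2-fold change together with an adjusted p (Benjamini-Hochberg) under 0.05 in the quasi-likelihood test of edgeR, and a second count used the adjusted p alone. In heterozygous against WT cells, 0 of the 28 tested members were past the fold threshold, where the share over all 16951 tested genes was 0.165% (0.0413% higher and 0.124% lower). By adjusted p alone, *Pax8* was lower and none was higher, against 5.14% of all genes (2.23% higher and 2.91% lower). In homozygous against WT cells, 0 of 28 were past the fold threshold against 2.14% of all genes (0.271% higher and 1.86% lower). By adjusted p alone *Pax6* was higher and *Lhx9* and *Nkx6-3* were lower, or 3 of 28 against 21.4% of all genes (10.9% higher and 10.5% lower). In homozygous against heterozygous cells, 1 of 28 (*Pax8*, higher) was past the fold threshold against 1.39% of all genes (0.496% higher and 0.897% lower). By adjusted p alone, *Pax6*, *Pax8* and *Msx1* were higher and *Dlx2* was lower, or 4 of 28 against 25.8% of all genes (12.9% in each direction). At an unadjusted p below 0.05 there were 5, 7 and 11 members in the 3 comparisons, against 16.3%, 32.5% and 36.9% of all genes. DESeq2 put 0, 0 and 1 past the fold threshold, against 0.0708%, 1.29% and 0.602% of all genes. By its adjusted p alone it called 0, 1 (*Pax6*) and 2 (*Pax6* and *Pax8*), against 2.55%, 12.7% and 15.3% of all genes. These p-values measure the spread between libraries, which may be technical, since no source used here says that the 2 libraries of a genotype came from separate cultures. The 3 comparisons share libraries and are not independent of one another. Only 3 members had at least 100 counts in every library, and a low count widens the error of a fold change. In homozygous against WT the SE was 0.0937 for *Pax6* but 0.351 for *Irx1*. The shares of all genes include genes with many more counts, so a lower share of members called does not show that they changed less.

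The median log2 fold change of the tested members was -0.19 in heterozygous against WT, -0.20 in homozygous against WT and -0.16 in homozygous against heterozygous cells, beside 0.00, -0.01 and -0.02 over all tested genes. In homozygous against WT, both deletion libraries were above both WT libraries for 5 members, where 28.4% of all genes did so, and below both for 13 members, where 29.4% of all genes did so. In heterozygous against WT these counts were 4 members above, against 23.7% of all genes, and 9 below, against 24% of all genes. In homozygous against heterozygous cells 6 members were above, against 28.6% of all genes, and 12 below, against 32.8% of all genes. The feeder cell genes fell in the same comparisons, as given above, and their part in the lower values of members was not tested. In bulk RNA, fewer cells of a type and less RNA per cell cannot be told apart.

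**Figure D3:**
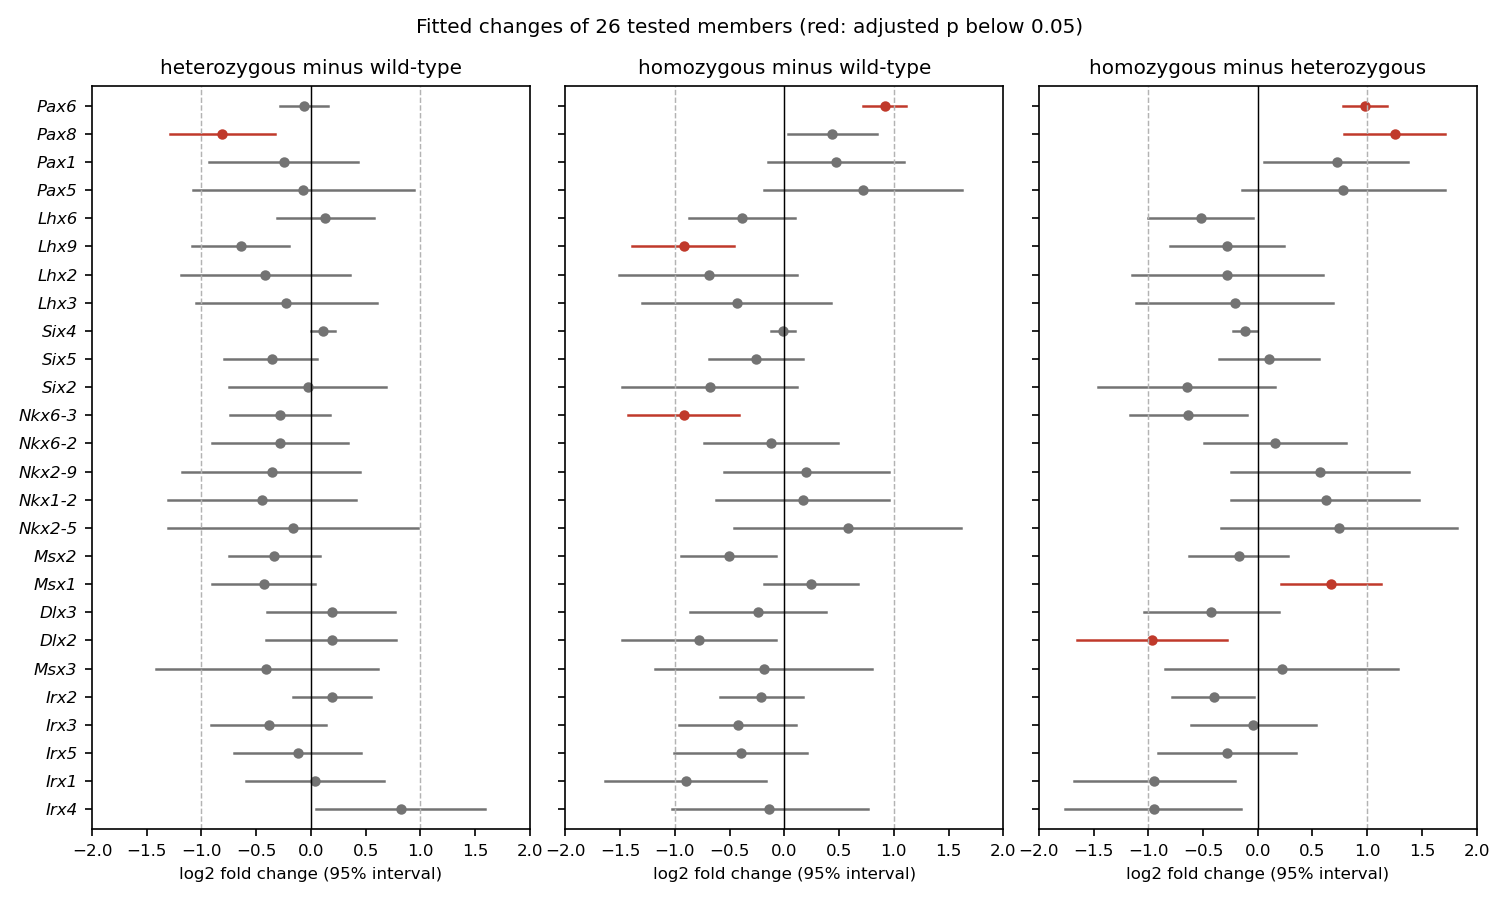
Fitted log2 fold changes of 26 of the 28 tested members with 95% intervals in the 3 comparisons, with dashed lines at an absolute log2 fold change of 1 and members at an adjusted p below 0.05 in red. *Pax6* lies at 0.92 in homozygous against WT with one of the narrowest intervals, and most other intervals shown span 0.

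The *Pax* family held the member with the clearest difference. *Pax6* (ENSMUSG00000027168, chromosome 2, 105668900 to 105697364, plus strand) encodes a master regulator of eye, forebrain and pancreas development. It had 276 and 234 counts in WT, 227 and 232 in heterozygous libraries and 376 and 484 in homozygous ones, or 9.39 and 9.16, 9.12 and 8.71, and 16.4 and 18.6 CPM. Both homozygous libraries were above all 4 others, which lay close together. Its log2 fold change was 0.92 (SE 0.0937, edgeR adjusted p = 4.17e-07) in homozygous against WT, a 1.89-fold higher level. It was 0.98 (SE 0.0954, adjusted p = 1.91e-07) in homozygous against heterozygous and -0.06 in heterozygous against WT (95% interval -0.28 to 0.16). The 4 other tested genes starting within 500 kb of it had a median of 0.04 in homozygous against WT (-0.27 to 0.23). Of them only *Rcn1* passed the adjusted p, and it was lower at -0.27, where 21.4% of all genes passed. Of the 11 tested neural progenitor genes listed for comparison, *Sox1*, *Tubb3* and *Nes* were higher and none was lower by adjusted p in homozygous against WT, where 10.9% of all genes were higher. Of the 11, however, 7 had a value below 0, down to -0.78, and the median was -0.16. *Sox1*, a neural plate factor on chromosome 8, went from 77 and 70 counts in WT to 168 and 176, a log2 fold change of 1.39 (SE 0.147, edgeR adjusted p = 6.52e-07). The summed level of the neural list was 324 to 336 CPM in WT, 347 to 356 in heterozygous and 374 to 379 in homozygous libraries. The part of such cells in the level of *Pax6* was not tested.

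*Pax8* (ENSMUSG00000026976, chromosome 2, 24420560 to 24475599, on the minus strand), a thyroid and kidney factor, had 60 and 54 counts in WT, 27 and 34 in heterozygous libraries and 60 and 78 in homozygous ones. The heterozygous libraries were the lowest, at 1.08 and 1.28 CPM, against 2.04 and 2.11 in WT and 2.62 and 3.0 in homozygous libraries. Its log2 fold change was -0.81 (SE 0.230, edgeR adjusted p = 0.0463) in heterozygous against WT and 1.25 (SE 0.221, adjusted p = 0.000286) in homozygous against heterozygous. In homozygous against WT it was 0.44 (95% interval 0.03 to 0.85, adjusted p = 0.121). The call against WT was lost without any 1 of the compared libraries, with edgeR adjusted p of 0.196 and 0.235 without WT replicates 1 and 2 and 0.242 and 0.163 without heterozygous replicates 1 and 2, and in the fit with the replicate number as a block it was 0.0531. The summed pluripotency genes were also lowest in heterozygous libraries, and their part in this result was not tested. The annotated gene *Gm13415* overlaps 6.06% of its exon bases on the opposite strand, and had 5 and 7 counts in WT, 6 and 5 in heterozygous libraries and 10 and 16 in homozygous ones. Whether counting used the strand is not given in the sources used here, so reads from such pairs cannot be told apart.

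*Pax1*, of the sclerotome and thymus, and *Pax5*, of B cells and the midbrain, lay above WT in homozygous cells without passing the test. *Pax1* had 28 and 19 counts in WT, 19 and 18 in heterozygous libraries and 27 and 31 in homozygous ones, with a log2 fold change of 0.47 in homozygous against WT (95% interval -0.15 to 1.09, edgeR adjusted p = 0.298). *Pax5* had 10 and 9, 7 and 10, and 12 and 16 counts, with a log2 fold change of 0.72 (-0.19 to 1.62, adjusted p = 0.27). In CPM, both homozygous libraries were above both WT libraries for all 4 tested *Pax* genes, where 28.4% of all genes did so. Only *Pax6* of them passed the test in this comparison. All 4 values were above 0, as were 8282 of all 16951 tested genes. They stayed so under each scaling tried, which shifts all genes nearly alike and is no separate test. Summed over the 9 *Pax* genes, expression was 13.0 to 13.1 CPM in WT, 11.5 to 12.1 in heterozygous and 21.4 to 24.2 in homozygous libraries, most of it from *Pax6*.

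*Pax3*, a neural crest and muscle progenitor factor and the contact partner of the *Wnt6* anchor, lies on chromosome 1 with its start 3.43 Mb from that of *Wnt6*. It had 4 and 6 counts in WT, 11 and 5 in heterozygous libraries and 4 and 4 in homozygous ones, and so was below the count minimum. In CPM, both deletion groups overlapped with WT, and the homozygous libraries lay below the heterozygous ones. In a fit of all genes with a count, its log2 fold change was 0.75 in heterozygous (95% interval -0.48 to 1.98, edgeR adjusted p = 0.85) and -0.16 in homozygous cells against WT (-1.58 to 1.26, adjusted p = 0.993), intervals that at this depth leave room for more than a 2-fold change in either direction in homozygous cells. *Pax7*, its close relative in muscle stem cells, had 1 and 2, 5 and 3, and 5 and 6 counts, with a log2 fold change of 1.94 in homozygous against WT in the same fit (0.08 to 3.80, adjusted p = 0.229). *Pax9*, a tooth and thymus factor, had 5 and 5, 4 and 2, and 5 and 6 counts. *Pax2* had at most 4 counts in any library.

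In the *Lhx* family, 4 of 8 members were tested and *Lhx9* was lower. *Lhx9* (ENSMUSG00000019230, chromosome 1, 138825186 to 138848577, minus strand), a LIM-homeodomain factor of gonad and brain development, starts 64.1 Mb from *Wnt6*. It had 96 and 66 counts in WT, 46 and 51 in heterozygous libraries and 28 and 48 in homozygous ones. In CPM, the WT libraries at 3.26 and 2.58 lay above the heterozygous libraries at 1.85 and 1.91 and the homozygous libraries at 1.22 and 1.84. Its log2 fold change against WT was -0.92 (SE 0.223, edgeR adjusted p = 0.00515) in homozygous cells, and -0.64 (95% interval -1.09 to -0.20, adjusted p = 0.0958) in heterozygous cells. Without WT replicate 1 the homozygous value was -0.74 with an adjusted p of 0.108, and in DESeq2 the adjusted p was 0.0564. The summed feeder cell genes followed the same order of genotypes, and their part in this result was not tested.

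The other tested *Lhx* genes did not pass the test. In homozygous against WT the log2 fold changes were -0.69 for *Lhx2*, a forebrain and hair follicle factor (95% interval -1.51 to 0.12), -0.43 for *Lhx3*, a pituitary and motor neuron factor (-1.30 to 0.43), and -0.39 for *Lhx6*, an interneuron factor (-0.87 to 0.10). All 4 tested *Lhx* values in this comparison were below 0, as were 8669 of all 16951 tested genes. They stayed so under each scaling tried, which shifts all genes nearly alike and is no separate test. *Lhx4*, also on chromosome 1, had 4 and 0, 0 and 0, and 3 and 1 counts, and *Lhx5*, of the hypothalamus and hippocampus, had 2 to 5 counts in each library. *Lhx1* and *Lhx8* did not exceed 7 counts in a library.

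The level of *Six4* differed little between genotypes. *Six4* (ENSMUSG00000034460, chromosome 12, 73099609 to 73113456) had 2155 and 1730 counts in WT, 1882 and 2042 in heterozygous libraries and 1589 and 1838 in homozygous ones. Its CPM of 73.3 and 67.7, 75.6 and 76.7, and 69.3 and 70.6 overlapped between WT and homozygous libraries. The log2 fold change in homozygous against WT was -0.01, with a 95% interval of -0.12 to 0.10. Both heterozygous values lay above both WT values, with a log2 fold change of 0.11 that did not pass the test (edgeR adjusted p = 0.295). *Six5*, next to the myotonic dystrophy kinase gene, had 83 and 64, 42 and 65, and 53 and 56 counts, and *Six2*, of kidney progenitors, had 29 and 18, 26 and 17, and 11 and 15, with log2 fold changes in homozygous against WT of -0.26 (-0.69 to 0.17) and -0.68 (-1.48 to 0.12). *Six3* had 8 and 7, 3 and 4, and 2 and 4 counts. *Six6* shares 4.79% of its exon bases with the opposite-strand gene *4930447C04Rik*, which had 732 to 1605 counts in a library, so its 3 to 7 counts are uncertain.

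In the *Nkx* family, 6 of 14 members were tested and *Nkx6-3* was lower in homozygous cells. *Nkx6-3* (ENSMUSG00000063672, chromosome 8, 23153269 to 23158948, plus strand), a stomach and hindbrain factor, had 60 and 53 counts in WT, 39 and 48 in heterozygous libraries and 28 and 25 in homozygous ones, or 2.04 and 2.07, 1.57 and 1.80, and 1.22 and 0.960 CPM. The 3 genotypes did not overlap. The log2 fold change against WT was -0.92 (SE 0.243, edgeR adjusted p = 0.00952) in homozygous and -0.28 (95% interval -0.74 to 0.17) in heterozygous cells. The homozygous call was lost without WT replicate 1 (adjusted p = 0.0562), without WT replicate 2 (0.0555) and without homozygous replicate 2 (0.0712), and in DESeq2 (0.11). The gene went against its surroundings. Its 11 tested neighbors within 500 kb had log2 fold changes of 0.03 to 1.21 with a median of 0.36. Of these, 7 passed the adjusted p, all higher, where 10.9% of all genes were higher. Of the 890 tested chromosome 8 genes, 10 had a lower value than *Nkx6-3*, or 1.12%.

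**Figure D4:**
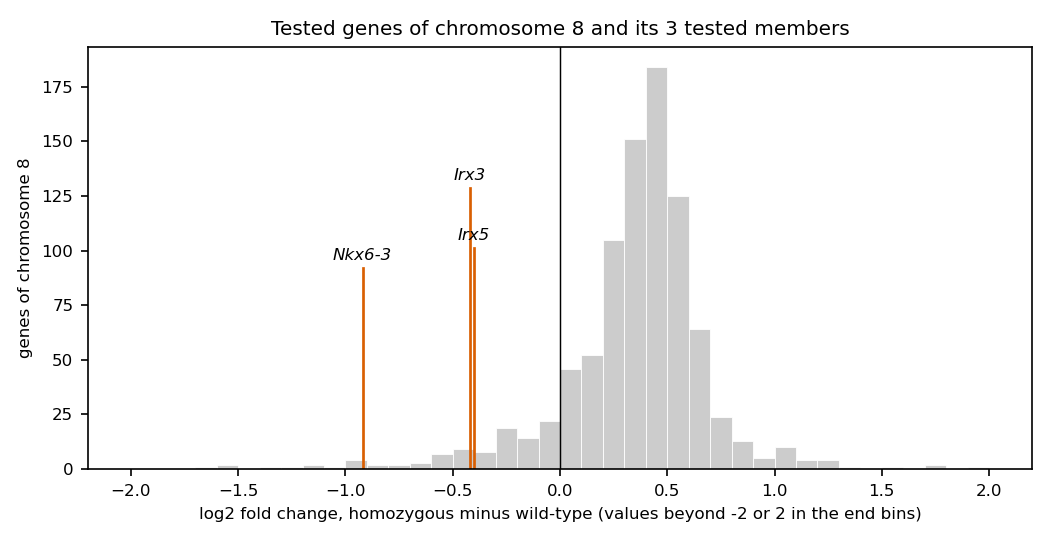
Distribution of the log2 fold change in homozygous against WT cells over the 890 tested genes of chromosome 8 (bars of width 0.1), with the 3 tested members of that chromosome as orange lines whose heights carry no value. The bars center near the median of 0.39, and *Nkx6-3* at -0.92, *Irx3* at -0.42 and *Irx5* at -0.40 lie to the left of 0.

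No other *Nkx* gene described here passed the test in any comparison. *Nkx2-5*, a heart factor, had 12 and 6, 10 and 5, and 9 and 15 counts, with 0.58 (-0.46 to 1.61) in homozygous against WT. *Nkx1-2*, of the caudal epiblast and tail bud, had 20 and 15, 8 and 16, and 19 and 16 counts, with -0.45 (-1.31 to 0.41) in heterozygous against WT. *Nkx2-9*, of the ventral neural tube, had 22 and 22, 18 and 14, and 29 and 16. *Nkx6-2*, an oligodendrocyte and neural tube factor, had 40 and 43, 41 and 23, and 38 and 30. It shares 12.9% of its exon bases with the opposite-strand gene *Inpp5a*, which had 767 to 883 counts in a library. The counts of *Nkx6-2* are therefore uncertain. *Nkx2-1*, a thyroid and lung factor, had 1 count in heterozygous replicate 2 and 1 in homozygous replicate 2. *Nkx2-2*, a ventral neural tube and islet factor, had 0 to 5 counts and *Nkx1-1* 0 or 1 in a library, so a fall of either was not detectable at this depth. In the fit of all genes with a count, the log2 fold change of *Nkx2-2* in homozygous against WT was 0.80 (95% interval -1.04 to 2.64). Of the other untested *Nkx* genes, *Nkx2-4* had 6 to 9 counts in a library, *Nkx6-1*, a motor neuron and islet factor, 3 to 8, *Nkx2-3* 1 to 5, and *Nkx3-2* and *Nkx2-6* at most 2.

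In the *Dlx* and *Msx* group, *Msx1* and *Dlx2* differed between the deletions. *Msx1* (ENSMUSG00000048450, chromosome 5, 37820485 to 37824583, minus strand), a BMP-responsive factor of the limb and tooth, had 57 and 55 counts in WT, 34 and 44 in heterozygous libraries and 60 and 58 in homozygous ones. The heterozygous libraries were the lowest, at 1.37 and 1.65 CPM, against 1.94 and 2.15 in WT and 2.62 and 2.23 in homozygous libraries. The log2 fold change was 0.67 (SE 0.22, edgeR adjusted p = 0.0307) in homozygous against heterozygous, whereas against WT it was -0.43 in heterozygous (95% interval -0.90 to 0.04) and 0.24 in homozygous cells (-0.19 to 0.67). The call was lost without heterozygous replicate 1 (adjusted p = 0.193) or 2 (0.0611), without homozygous replicate 1 (0.145) and in DESeq2 (0.186). As for *Pax8*, the part of the lower pluripotency genes in heterozygous libraries was not tested.

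*Dlx2* (ENSMUSG00000023391, chromosome 2, 71543408 to 71546754, minus strand) showed 35 and 27 counts in WT, 39 and 27 in heterozygous libraries and 16 and 16 in homozygous ones. Both homozygous libraries, at 0.698 and 0.614 CPM, were below the other 4, which ran from 1.01 to 1.57. The log2 fold change was -0.97 (SE 0.328, edgeR adjusted p = 0.0361) against heterozygous and -0.78 (95% interval -1.48 to -0.08, adjusted p = 0.106) against WT. The first was lost without WT replicate 2 (adjusted p = 0.0517), heterozygous replicate 1 (0.329) or either homozygous replicate (0.06 and 0.112), and in DESeq2 (0.206). Its partner *Dlx1* had 7 and 2, 10 and 8, and 4 and 4 counts. *Msx2*, of the skull and limb, had 79 and 81, 53 and 66, and 55 and 45 counts, with a log2 fold change of -0.51 (-0.94 to -0.08, adjusted p = 0.086) in homozygous against WT. *Dlx3*, of skin and placenta, and *Msx3*, of the dorsal neural tube, had values of -0.24 (-0.86 to 0.38) and -0.19 (-1.18 to 0.80) in that comparison, and *Dlx4*, *Dlx5* and *Dlx6* were not tested, with at most 14, 9 and 6 counts in a library.

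**Figure D5:**
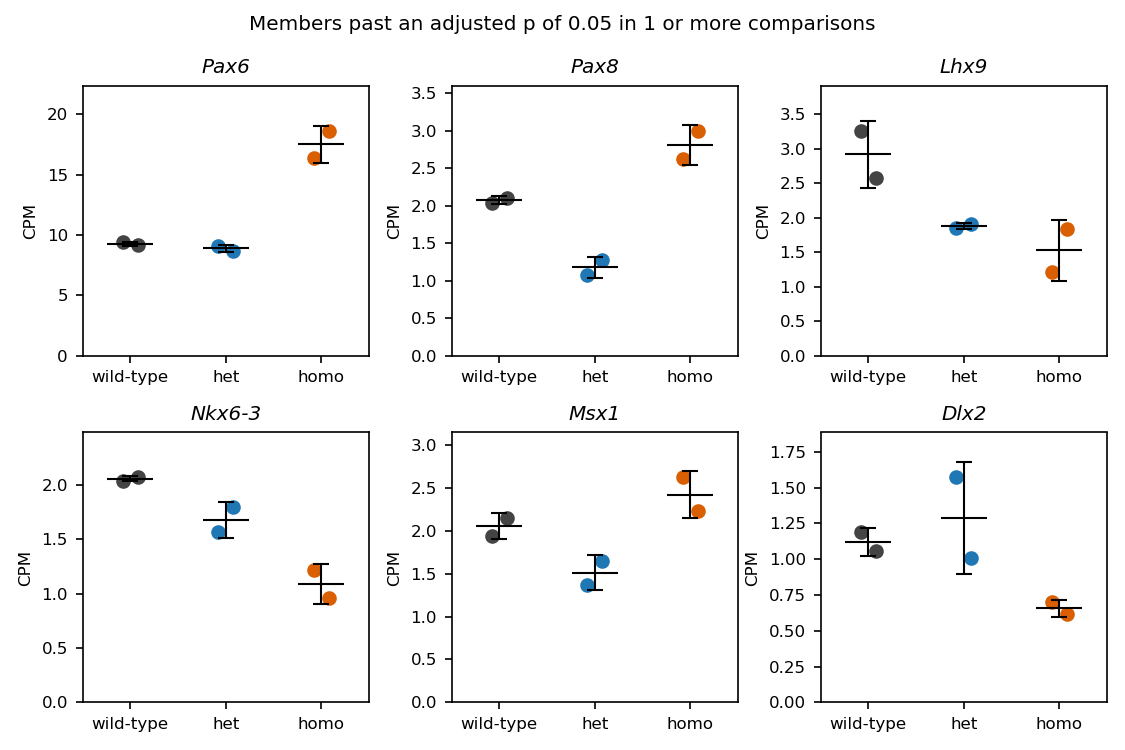
CPM of the 6 members at an adjusted p below 0.05 in at least 1 comparison, with a point per library and the mean ± SD of each genotype (n = 2). *Pax6* is separated in homozygous libraries (16.4 and 18.6 CPM), *Pax8* and *Msx1* are lowest in heterozygous libraries, and *Lhx9* and *Nkx6-3* are highest in WT.

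The *Irx* family, Iroquois factors of heart, limb and neural patterning, had 5 of 6 members tested, and none passed the adjusted p in any comparison. *Irx1* had 30 and 27 counts in WT, 30 and 25 in heterozygous libraries and 16 and 11 in homozygous ones, with both homozygous libraries below the other 4. Its log2 fold change was -0.90 (95% interval -1.64 to -0.17, edgeR adjusted p = 0.0752) in homozygous against WT and -0.95 (-1.68 to -0.21, adjusted p = 0.0558) against heterozygous. The value against WT depended on the library left out, at -1.29 without homozygous replicate 1 and -0.57 without homozygous replicate 2. *Irx4* had 16 and 16, 29 and 24, and 7 and 19 counts, and its homozygous libraries lay on either side of WT. It had the highest value of the 28 tested members in heterozygous against WT, at 0.82 (0.05 to 1.59, adjusted p = 0.268). *Irx2* had 86 and 66, 80 and 83, and 52 and 65 counts, with -0.21 (-0.59 to 0.17) in homozygous against WT. On chromosome 8, *Irx3* had 53 and 39, 28 and 38, and 25 and 36 counts and *Irx5* had 41 and 39, 43 and 26, and 28 and 26. Their log2 fold changes in homozygous against WT were -0.42 (-0.96 to 0.11) and -0.40 (-1.01 to 0.21), and 3.71% and 3.93% of chromosome 8 genes had a lower value. All 5 tested *Irx* values in this comparison were below 0, as were 8669 of all 16951 tested genes. These signs held under each scaling tried, which shifts all genes nearly alike and is no separate test. For 4 of the 5, both homozygous libraries were below both WT libraries in CPM, where 29.4% of all genes did so. *Irx6*, the other chromosome 8 member, had 1 to 4 counts in each library.

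No member of the *Hmx* and *Vax* group reached the count minimum. *Vax2*, an eye patterning factor, had the most, with 12 and 6 counts in WT, 5 and 5 in heterozygous libraries and 2 and 4 in homozygous ones. Both homozygous libraries were lower than both WT libraries. In the fit of all genes with a count, its log2 fold change in homozygous against WT was -1.39 (95% interval -2.73 to -0.04, edgeR adjusted p = 0.239). *Hmx1*, an eye and ear factor, had 0 and 4, 3 and 4, and 4 and 5 counts, with a value of 1.27 (-0.59 to 3.13) in homozygous against WT. Its homozygous libraries lay above the other 4 in CPM only through scaling. WT replicate 2, heterozygous replicate 2 and homozygous replicate 1 each had 4 counts, or 0.157, 0.15 and 0.175 CPM. *Hmx2* and *Hmx3*, inner ear factors, did not exceed 4 counts in a library.

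Cofactors of these proteins and other regulators were read against the share of all genes called in homozygous against WT, 10.9% higher and 10.5% lower. Of 18 tested *Eya*, *Dach*, *Ldb*, *Lmo*, *Ssbp* and *Tle* genes, 2 were higher and 4 lower by adjusted p in homozygous against WT, with a median log2 fold change of -0.04. *Ldb1*, the partner of LIM-homeodomain factors, was lower at -0.29 (SE 0.0488, edgeR adjusted p = 0.000192), and *Tle2*, a corepressor, was past the fold threshold at -1.10 (SE 0.242, adjusted p = 0.00236), from 63 and 53 counts in WT to 21 and 27. *Eya3*, at 104 CPM in WT, had a log2 fold change of -0.04 (SE 0.0457). Of the 14 PRC2 subunit and H3K27 demethylase genes, all tested, 3 were higher and 1 lower, with a median of 0.08. Of the 20 PRC1 subunit genes, all tested, 1 was higher and 3 were lower, with a median of -0.05. Of 68 other developmental homeobox genes, 37 were tested, 2 were higher and 5 lower, with a median of -0.10, and *Prrx1* and *Prrx2* among the lower ones are also in the feeder cell list. The 27 tested *Hox* genes had a median of -0.64 in the same comparison, with 1 higher and 7 lower.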

How the data were processed

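The deposited table holds whole-number read counts per gene, not normalized by the authors, for 6 libraries of polyA RNA made with a stranded kit. The submitters' processing notes name Trimmomatic 0.39, STAR 2.6.1d, SAMtools 1.9, featureCounts 1.6.4 and DESeq2 1.22.2 with the builds mm10 and GRCm38. The annotation release and the strand setting of the counting are not given in the sources used here. The methods state biological triplicates, while 2 libraries per genotype are labeled and were used. Genotypes and replicate numbers came from the sample labels.

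The 16951 of 55385 genes that reached 10 counts in 2 or more libraries were fitted with edgeR 4.0.16 (limma 3.58.1, R 4.3.3) using TMM factors and a single quasi-likelihood model of the 3 genotypes, with Benjamini-Hochberg adjustment over all tested genes. The common biological coefficient of variation was 3.52%. CPM used the TMM-scaled totals, and levels per kilobase used the merged exon length. Positions, exons and lengths came from the GENCODE vM21 annotation of GRCm38, in which 55144 gene identifiers and all 57 members were found. Promoter sequences came from a set of RefSeq windows on GRCm38.p6, which held none for 15 members. The genes of a family were ordered by name, and neighbors were tested genes with a start within 500 kb.

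The members, the lists and the thresholds were chosen with earlier results of these data known. Genes were named if they passed a test, had one of the 10 highest WT levels or one of the 5 highest or lowest fold changes, lie on chromosome 1 or 8, or are named by the study; further members are given to account for the rest, and 2 of the 57 are counted in the totals but not reported here. The fit was tested on simulated data with larger changes than those of the tested members, so that test does not cover changes of their size. The results were recomputed with DESeq2 1.42.0, with DESeq2 size factors inside edgeR, with scaling by total counts only, with 2 other filters, with the compared libraries only, with the replicate number as a block, with no fold threshold and with each library left out in turn. Summaries were made in Python 3.11.15 with pandas 2.3.3.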

Additional observations from a re-analysis of the deposited data

Results flagged for a closer look

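For 4 of the 28 tested members the change in homozygous cells differed from that in heterozygous cells. The test was that of the difference itself, the comparison of the 2 deletions in edgeR. Of all tested genes, 25.8% passed it at an adjusted p below 0.05. The log2 difference, homozygous minus heterozygous, was 1.25 for *Pax8*, 0.98 for *Pax6*, 0.67 for *Msx1* and -0.97 for *Dlx2*. *Pax8* and *Msx1* were lowest in both heterozygous libraries, whereas *Pax6* and *Dlx2* stood apart in both homozygous libraries. The differences of *Pax6* and *Pax8* passed the adjusted p under all 13 alternatives, *Msx1* under 9 and *Dlx2* under 8. The edited cells were selected as individual clones, and the number of clones behind the libraries is not given, so genotype and clone cannot be told apart.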

How the results depend on the processing

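Of the members called by adjusted p, *Pax6* in both homozygous comparisons and *Pax8* in homozygous against heterozygous cells kept their direction and their side of the threshold in all 13 alternatives. *Pax8* in heterozygous against wild-type (WT) cells passed in 6 of 13 (adjusted p 0.0181 to 0.343), *Lhx9* in 11 (0.000144 to 0.108), *Nkx6-3* in 9 (0.00195 to 0.11), *Dlx2* in 8 (0.0141 to 0.329) and *Msx1* in 9 (0.0199 to 0.193). With no fold threshold the counts of members called were 1, 3 and 4 in heterozygous against WT, homozygous against WT and homozygous against heterozygous cells. The shares over all genes were 5.14%, 21.4% and 25.8%. With total counts only, 3 members (*Dlx2*, *Irx1* and *Pax8*) were past the fold threshold in the last comparison. With 1 library left out, members past the fold threshold numbered 0, 0 to 3, and 1 to 3.

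Over all genes, DESeq2 put 12, 219 and 102 past the fold threshold in place of 28, 362 and 236, and without a filter beyond 1 count heterozygous against WT gave 49. With 1 library left out the counts were 14 to 42, 274 to 420 and 170 to 387. Without WT replicate 2 and heterozygous replicate 2 the first was 14 and 15, and without homozygous replicate 2 the last was 387. With total counts only, calls by adjusted p in homozygous against WT split into 1183 higher and 2525 lower in place of 1847 and 1786, and in homozygous against heterozygous cells into 1391 and 3337 in place of 2191 and 2180. Those past the fold threshold split into 66 higher and 213 lower in place of 84 and 152 in the last comparison. DESeq2 split the calls of homozygous against heterozygous cells past the fold threshold into 46 and 56. With total counts only, the median of all genes was 0.01, -0.06 and -0.09 in place of 0.00, -0.01 and -0.02.

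The replicate numbers did not pair the libraries, with correlations of deviations of 0.0261, -0.0944 and 0.00865 between genotypes. With the replicate number as a block, the members past the fold threshold numbered 0, 0 and 1 and all genes 27, 344 and 225, and *Pax8* in heterozygous against WT had a log2 fold change of -0.82 with an adjusted p of 0.0531.

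Every change of sign among the members given here came from leaving out 1 library and concerned a member that had not passed the test in that comparison, although *Dlx2* passed in homozygous against heterozygous cells. In heterozygous against WT the lowest and highest log2 fold changes were -0.15 and 0.47 for *Dlx2*, -0.08 and 0.42 for *Dlx3*, -0.14 and 0.21 for *Irx1*, -0.58 and 0.24 for *Irx5*, -1.09 and 0.06 for *Lhx2*, -0.62 and 0.10 for *Lhx3*, -0.04 and 0.36 for *Lhx6*, -1.11 and 0.09 for *Msx3*, -0.78 and 0.31 for *Nkx2-5*, -0.81 and 0.12 for *Nkx6-2*, -0.29 and 0.12 for *Pax5*, and -0.42 and 0.29 for *Six2*. In homozygous against WT they were -0.92 and 0.32 for *Irx4*, -0.67 and 0.21 for *Msx3*, -0.05 and 0.38 for *Nkx1-2*, -0.38 and 0.66 for *Nkx2-9*, -0.39 and 0.13 for *Nkx6-2*, and -0.06 and 0.05 for *Six4*. In homozygous against heterozygous cells they were -0.23 and 0.14 for *Irx3*, -0.64 and 0.18 for *Irx5*, -0.75 and 0.39 for *Lhx2*, -0.53 and 0.19 for *Lhx3*, -0.42 and 0.06 for *Msx2*, -0.28 and 0.92 for *Msx3*, -0.02 and 1.02 for *Nkx2-9*, -0.24 and 0.69 for *Nkx6-2*, and -0.13 and 0.40 for *Six5*. The cause was not tested.

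The depth limits the 29 untested members, which had at most 14 counts in a library, and a lone library in these fits was assumed to vary like the others.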
